A study of Mus musculus with 6 samples.

Results

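The enzymes of threonine, serine, glycine and one-carbon metabolism were examined in 5-day-old mouse gastruloids with and without silencing of the ultraconserved lncRNA *T-UCstem1*. The set held 10 genes, chosen by name: *Tdh* and *Gcat* (threonine breakdown), *Phgdh*, *Psat1* and *Psph* (serine synthesis), *Gldc* (glycine cleavage), *Shmt1*, *Shmt2* and *Mthfd2* (folate cycle) and *Mat2a* (methionine cycle). They are 10 of the 35565 gene identifiers in the deposited count table and 10 of the 15110 genes with enough counts to be tested. A further identifier, ENSMUSG00000116378, also carries the name *Gcat* and is described apart.

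Gastruloids are aggregates of embryonic stem cells (ESCs) that, after a pulse of the WNT activator CHIR99021, elongate and form derivatives of the germ layers. There were 3 bulk RNA sequencing libraries of Control gastruloids, from ESCs that carry a non-targeting construct (labelled as wild type in the sample records), and 3 of KD-1 gastruloids, from a single ESC clone in which *T-UCstem1* was silenced. Both lines derive from the mouse ESC line TBV2 129/SvP, and all gastruloids were collected at day 5. With 1 line for each group, the silencing and other differences between the lines cannot be told apart, and nothing in the labels says what separates the replicates, so the p-values measure the spread between these libraries. *T-UCstem1* was not analysed here, so the labels were not checked against its level. Library totals were 20982249, 34694406 and 56674906 counts in Control and 41180012, 42407550 and 85561026 counts in KD-1, and the libraries are called shallowest, middle and deepest within their group. Levels are TMM-normalized CPM, counts scaled by library size, given as mean ± SD over the 3 libraries of a group.

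These enzymes feed one-carbon units into nucleotide synthesis and methylation. Threonine dehydrogenase (TDH) oxidizes threonine in mitochondria, and GCAT then splits the product into glycine and acetyl-CoA. Serine is made from a glycolytic intermediate by PHGDH, PSAT1 and PSPH in turn. SHMT1 in the cytosol and SHMT2 in mitochondria convert serine to glycine and load a carbon onto folate, the glycine cleavage system with GLDC loads another from glycine, and MTHFD2 processes the folate-bound carbon in mitochondria. MAT2A makes S-adenosylmethionine, the methyl donor of the cell. Mouse ESCs are known for high *Tdh* expression and for depending on threonine.

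*Tdh*, *Gldc* and *Shmt1* were higher in KD-1 gastruloids, whereas no gene of the set was called lower. *Tdh* rose 4.79-fold, *Gldc* 3.20-fold and *Shmt1* 1.67-fold. The serine synthesis genes and *Gcat* were not called, and neither were *Shmt2*, *Mthfd2* and *Mat2a*. Calls required a change of more than 1.5-fold in either direction and an adjusted p under 0.05 (edgeR's quasi-likelihood test, with Benjamini-Hochberg adjustment over all genes tested), and the same test gave every adjusted p below. The 3 called genes are 30.0% of the set, where 37.7% of all genes tested were called, 19.7% higher and 18.1% lower. *Psat1*, *Mthfd2* and *Mat2a* passed the adjusted p with changes under 1.5-fold, as 25.8% of all genes tested did. The median log2 fold change (log2FC, KD-1 over Control) of the 10 genes was 0.31, and that of all genes tested was -0.01. Thus the set as a whole was called about as often as other genes. In bulk samples a change in the share of cells that express a gene and a change in its RNA per cell cannot be told apart.

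**Figure D1:**
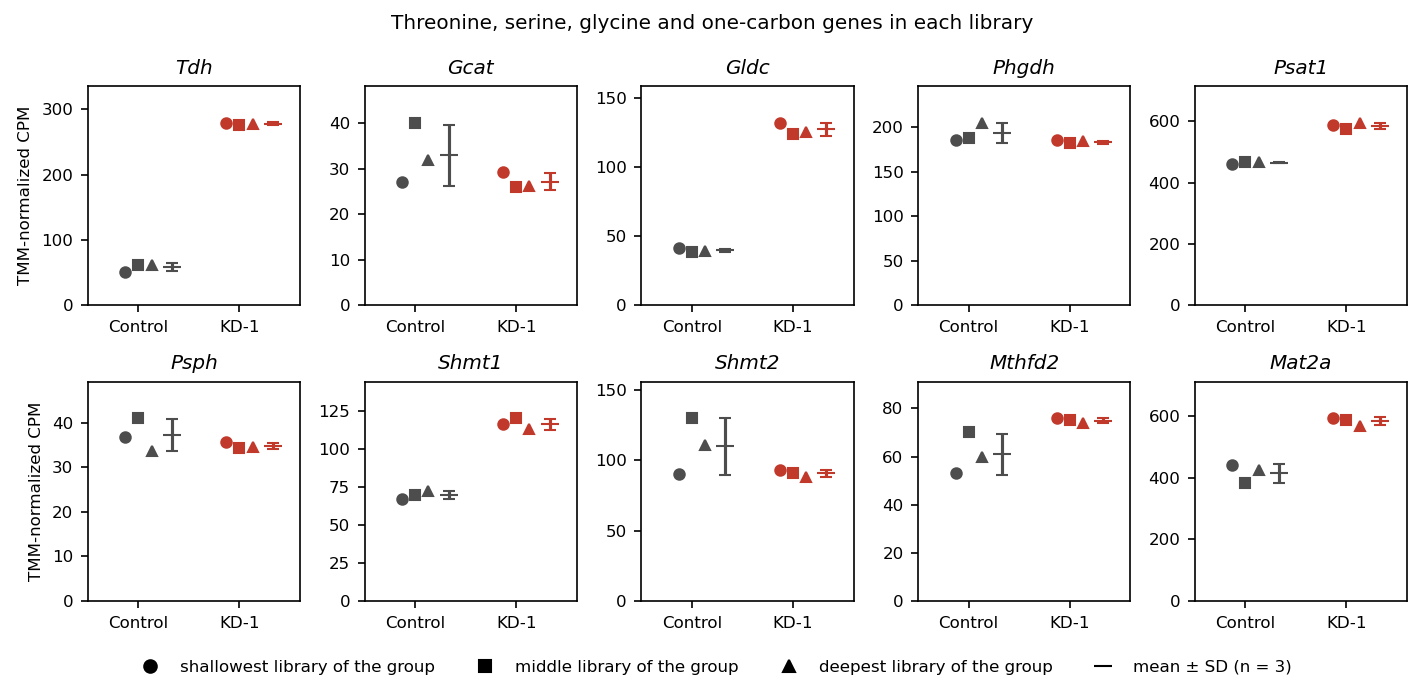
TMM-normalized CPM (vertical axes, each from 0) of the 10 genes in the 3 Control (grey) and 3 KD-1 (red) libraries, with a symbol for each library's depth rank in its group and the mean ± SD beside the points. *Tdh*, *Gldc* and *Shmt1* separate widely, while the Control points of *Gcat*, *Shmt2* and *Mthfd2* are spread.

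*Tdh* (ENSMUSG00000021953) lies on the minus strand of chromosome 14, from 63724585 to 63751098 in GRCm39. It had 50.8, 61.6 and 61.2 CPM in the shallowest, middle and deepest Control library, and 280, 276 and 277 CPM in the KD-1 libraries in the same order. Every KD-1 library was thus far above every Control library, and the KD-1 libraries were nearly equal. The means were 57.9 ± 6.14 and 278 ± 2.08 (SD, n = 3 each), with a log2FC of 2.26 (95% interval 2.08 to 2.44, edgeR adjusted p = 1.2e-07). Of all genes tested, 4.32% had a log2FC at least as high. Its exons overlap those of *Gm17232* and *Gm63171*, both on the opposite strand and both without a row in the count table. Whether strand was used in counting is not stated, so reads of such antisense genes cannot be told apart from those of *Tdh*.

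*Gcat*, which acts directly after *Tdh*, had no such rise. It (ENSMUSG00000006378, chromosome 15, from 78914708 to 78922553, plus strand) had 27.0, 40.1 and 31.8 CPM in the Control libraries and 29.2, 26.0 and 26.1 CPM in the KD-1 libraries. The groups overlapped, and the middle Control library was the highest of all 6. The log2FC was -0.29 (95% interval -0.59 to 0.01, edgeR adjusted p = 0.087). It was -0.13 without the middle Control library and -0.41 without the shallowest one, where it passed the adjusted p (edgeR, 0.013) with a change under 1.5-fold. The identifier ENSMUSG00000116378 overlaps *Gcat* on the same strand and extends downstream of it, from 78915101 to 78926731, so that reads can be split between them. It held 185 counts in the middle Control library, 0 in the other Control libraries and 34, 40 and 62 counts in the KD-1 libraries. With the counts of both identifiers summed, *Gcat* had a log2FC of -0.32 (edgeR adjusted p = 0.12).

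*Gldc* encodes the decarboxylase of the glycine cleavage system (ENSMUSG00000024827, chromosome 19, from 30071975 to 30152871, minus strand). It had 41.0, 38.8 and 39.4 CPM in Control and 132, 124 and 125 CPM in KD-1, with a wide gap between the groups and little spread within either. The means were 39.7 ± 1.17 and 127 ± 4.57 (SD, n = 3 each), with a log2FC of 1.68 (95% interval 1.55 to 1.81, edgeR adjusted p = 1.0e-07). The partners of GLDC in the same complex changed less. *Amt*, the aminomethyltransferase, had 62.1 ± 4.26 CPM in Control and 80.6 ± 1.15 in KD-1 (SD, n = 3 each), with a log2FC of 0.38 that passed the adjusted p (edgeR, 9.0e-04) but not the fold change threshold. *Gcsh*, the lipoyl carrier, had a log2FC of 0.14 (95% interval -0.03 to 0.30), and *Dld*, a subunit shared with other dehydrogenase complexes, had -0.16. Among the genes that attach lipoate, *Lipt1* was called higher (0.83), and *Lias* (-0.07) and *Lipt2* (-0.23) were not called. *Lipt1* lies on chromosome 1, where the 871 genes tested had a median log2FC of 0.49.

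The serine synthesis genes were not called in either direction. *Phgdh* (ENSMUSG00000053398, chromosome 3, from 98220484 to 98255047, minus strand), the first enzyme of the branch, had 185, 188 and 205 CPM in Control and 185, 182 and 184 CPM in KD-1, where the lowest Control library and the highest KD-1 library were almost equal. Its log2FC was -0.07 (95% interval -0.20 to 0.06, edgeR adjusted p = 0.30). *Psph* (ENSMUSG00000029446, chromosome 5, from 129841925 to 129864513, minus strand), the last enzyme, had 36.8, 41.0 and 33.7 CPM in Control and 35.7, 34.3 and 34.6 CPM in KD-1, and its groups overlapped. Its log2FC was -0.09 (95% interval -0.28 to 0.09). These intervals leave out a 1.5-fold change of either gene in either direction. *Psat1* (ENSMUSG00000024640, chromosome 19, from 15882039 to 15924701, minus strand), the aminotransferase between them, had 462, 466 and 466 CPM in Control and 587, 576 and 596 CPM in KD-1. The groups were well apart, and the log2FC of 0.34 (95% interval 0.22 to 0.45, edgeR adjusted p = 4.2e-04) was a 1.26-fold difference, below the fold change threshold. *Psph* shares exon sequence with *Cct6a* on the opposite strand, a chaperonin gene with 559 CPM in Control and 703 in KD-1, so its counts are uncertain. The processed pseudogene *Phgdh-ps1* held at most 1 count in any library.

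The cytosolic and the mitochondrial serine hydroxymethyltransferase differed. *Shmt1* (ENSMUSG00000020534, chromosome 11, from 60661185 to 60708167, minus strand) had 67.1, 69.4 and 72.1 CPM in Control and 116, 120 and 113 CPM in KD-1. All KD-1 libraries were above all Control libraries, with means of 69.6 ± 2.53 and 116 ± 3.55 (SD, n = 3 each) and a log2FC of 0.74 (95% interval 0.61 to 0.87, edgeR adjusted p = 8.5e-06). *Smcr8*, which overlaps exons of *Shmt1* on the opposite strand, rose as well, from 58.9 to 93.0 CPM, a log2FC of 0.66 (edgeR adjusted p = 0.00115), and 0.52 without the middle Control library, where it was not called. Its part in the *Shmt1* counts was not tested. *Gm74448* and the pseudogene *Gm12611* overlap *Shmt1* exons on the opposite strand as well. *Gm74448* is without a row in the count table, and *Gm12611* had too few counts to be tested. *Shmt2* (ENSMUSG00000025403, chromosome 10, from 127352266 to 127358323, minus strand) had 90.2, 130 and 111 CPM in Control and 93.1, 91.2 and 88.2 CPM in KD-1. Its groups overlapped, since the shallowest Control library was as low as the KD-1 libraries. The log2FC was -0.28 (95% interval -0.55 to -0.02, edgeR adjusted p = 0.058). Without the shallowest Control library it was -0.41 (edgeR adjusted p = 0.0024) and without the middle one -0.16. *Ndufa4l2*, on the opposite strand of *Shmt2*, was under 0.5 CPM in both groups.

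The balance of the pair was compared as the log2 ratio of *Shmt1* to *Shmt2* in CPM per kb of exon sequence. The ratio was -1.08, -1.56 and -1.27 in the Control libraries and -0.34, -0.26 and -0.29 in the KD-1 libraries, so that *Shmt2* was the more abundant transcript in all 6 and the groups did not overlap. The mean ratios were -1.31 ± 0.24 and -0.30 ± 0.04 (SD, n = 3 each), a difference of 1.01 (two-sided exact permutation test, p = 0.1, the smallest value that 3 libraries against 3 allow).

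*Mthfd2* (ENSMUSG00000005667, chromosome 6, from 83282673 to 83302890, minus strand) had 53.3, 70.1 and 59.7 CPM in Control and 75.9, 75.1 and 73.9 CPM in KD-1. The groups did not overlap, yet the middle Control library came close to the KD-1 libraries. The log2FC of 0.29 (95% interval 0.08 to 0.51, edgeR adjusted p = 0.022) was under the fold change threshold. It lay between 0.21 and 0.40 with a library left out, and its adjusted p rose above 0.05 in 3 of these 6 fits, without the deepest Control library (0.079) or the shallowest (0.056) or middle (0.052) KD-1 library. *Mat2a* (ENSMUSG00000053907, chromosome 6, from 72409779 to 72416684, minus strand) had 440, 381 and 423 CPM in Control and 592, 586 and 567 CPM in KD-1. All KD-1 libraries were higher, a log2FC of 0.49 (95% interval 0.34 to 0.64, edgeR adjusted p = 2.4e-04) that corresponds to 1.40-fold. *Ggcx*, which overlaps *Mat2a* exons on the opposite strand, was far lower in abundance (11.2 CPM in Control and 7.17 in KD-1). *Particl* overlaps *Mat2a* exons on that strand as well and is without a row in the count table, so its reads cannot be told apart.

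**Figure D2:**
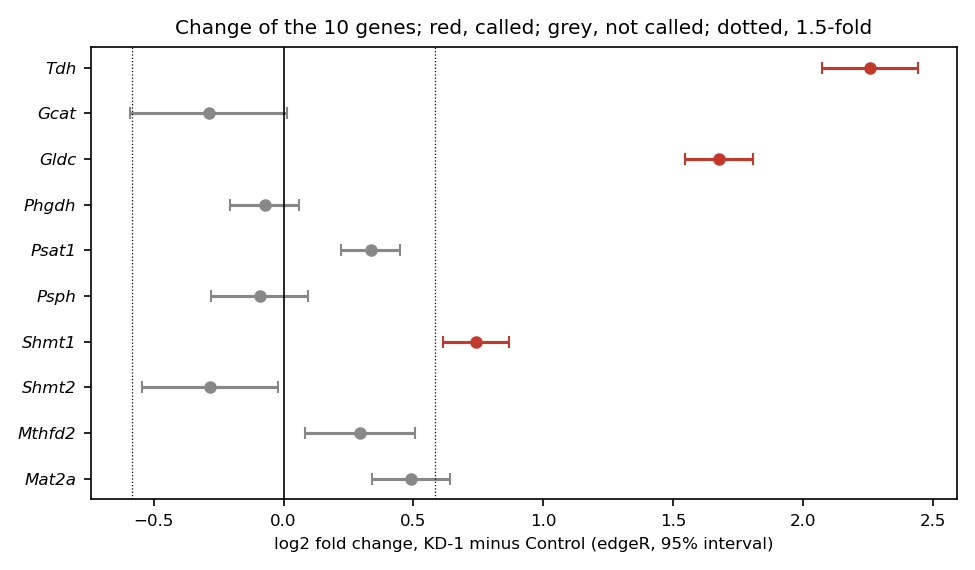
log2FC of KD-1 against Control for each of the 10 genes, with the 95% interval of edgeR's quasi-likelihood fit, a solid line at 0 and dotted lines at a 1.5-fold change. *Tdh*, *Gldc* and *Shmt1* (red) are called, *Psat1*, *Mthfd2* and *Mat2a* lie between 0 and the threshold, and the other 4 lie below 0.

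For 7 of the 10 genes the libraries of the groups did not overlap, a share of 70.0% where 70.6% of all genes tested did so. The KD-1 libraries were closer to each other than the Control libraries. The median coefficient of variation of the 10 genes was 8.57% in Control and 2.15% in KD-1, and over all genes tested it was 12% and 4.92%. Over the genes above 20 CPM in Control, as all of the 10 were, it was 7.97% and 2.97%. The middle Control library was the highest of its group for 6 of the 10 genes, among them *Gcat*, *Psph*, *Shmt2* and *Mthfd2*, and for 40.0% of all genes tested.

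Levels of different genes were compared as CPM per kb of exon sequence. In Control, *Mat2a* (88.6), *Psat1* (79.0) and *Phgdh* (68.2 CPM per kb) were the most abundant. *Shmt2* (26.9), *Mthfd2* (16.7), *Gcat* (11.8), *Shmt1* (10.7) and *Tdh* (8.69) followed, and *Psph* (5.05) and *Gldc* (3.96) were the lowest. Among neighbours in this order the ranges over the libraries overlapped between *Gcat* and *Shmt1*. In KD-1, *Tdh* had 41.7 CPM per kb and came directly after *Mat2a* (124), *Psat1* (99.6) and *Phgdh* (64.9), and *Gldc* (12.7) came before *Gcat* (9.70) and *Psph* (4.74). The ranges of neighbours did not overlap in KD-1. The order depended in part on the length used. With the longest transcript of each gene in place of all its exons, *Psat1* came first in both groups, *Tdh* came sixth in Control, and *Shmt2* and *Mthfd2* changed places in KD-1.

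**Figure D3:**
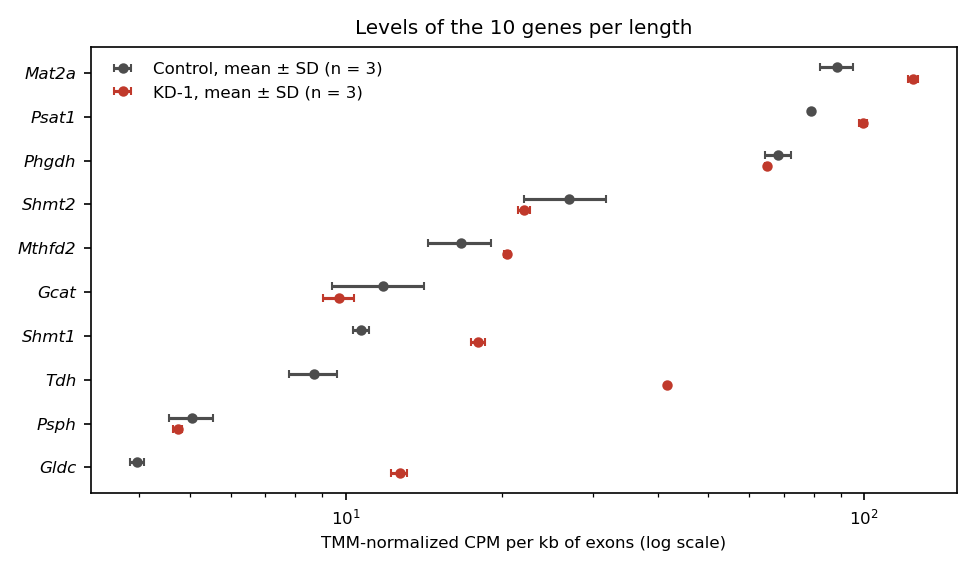
Mean ± SD (n = 3) of TMM-normalized CPM per kb of exon sequence (log scale) of the 10 genes in Control (grey) and KD-1 (red), ordered by the Control level. *Tdh* moves from 8.69 to 41.7 CPM per kb and so from the lower part of the order to the place after *Phgdh*.

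To show the start site of a gene that was called beside that of a gene that was not, the promoters of *Gldc* and *Gcat* are printed as RefSeq gives them for GRCm38.p6, from 250 bases before to 50 bases after the start. Promoters were matched for 9 of the 10 genes (all but *Tdh*), and *Psat1* had a pair of them. The letters searched on both strands were TGATGNAA, the composite element bound by ATF4, CACGTG, the E-box bound by MYC proteins, and CCAAT, the box bound by NF-Y, which was added after the sequences had been seen. None of the 9 genes had TGATGNAA, which 3.97% of the 32851 promoters held. *Gcat* had CACGTG, which 7.15% held. CCAAT was found in 7 of the 9 genes (all but *Gcat* and *Shmt2*) and in 37.4% of all promoters. These values cannot be compared, since CCAAT was chosen from these sequences and genes are counted in one value and promoters in the other. Capitals mark CCAAT, read as ATTGG on this strand, in *Gldc* (chr19:30175392-30175691, minus strand) and CACGTG in *Gcat* (chr15:79030624-79030923, plus strand). A match describes these letters only and does not show that a factor binds.
Gldc: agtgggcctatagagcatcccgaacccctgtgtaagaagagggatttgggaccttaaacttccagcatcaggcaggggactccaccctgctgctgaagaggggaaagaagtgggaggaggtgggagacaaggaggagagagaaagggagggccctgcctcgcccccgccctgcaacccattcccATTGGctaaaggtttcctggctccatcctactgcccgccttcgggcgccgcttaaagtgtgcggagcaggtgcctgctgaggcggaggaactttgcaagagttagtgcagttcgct
Gcat: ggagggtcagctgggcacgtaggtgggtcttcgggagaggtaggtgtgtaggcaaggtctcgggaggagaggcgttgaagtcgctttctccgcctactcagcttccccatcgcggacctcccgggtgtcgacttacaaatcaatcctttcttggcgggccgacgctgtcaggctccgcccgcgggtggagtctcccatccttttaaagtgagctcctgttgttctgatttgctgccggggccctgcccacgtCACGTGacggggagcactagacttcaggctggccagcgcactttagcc

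The rest of the pathway was described with 11 lists of 99 further genes, written out from biochemistry. Of these, 88 had enough counts, and 9 rose and 8 fell by the rule for calls. Leaving out chromosome 1, the counts were 6 and 8 of 85. The 19.3% called lies below the 37.7% of all genes tested, and the median absolute log2FC was 0.32, against 0.49 over all genes tested. A further 34 genes passed the adjusted p with a change under 1.5-fold, where 25.8% of all genes tested did so. The 11 untested genes, among them the liver enzymes *Sds*, *Agxt* and *Mat1a*, had at most 23 counts in any library, and these 3 were at 0 counts in all 6.

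**Figure D4:**
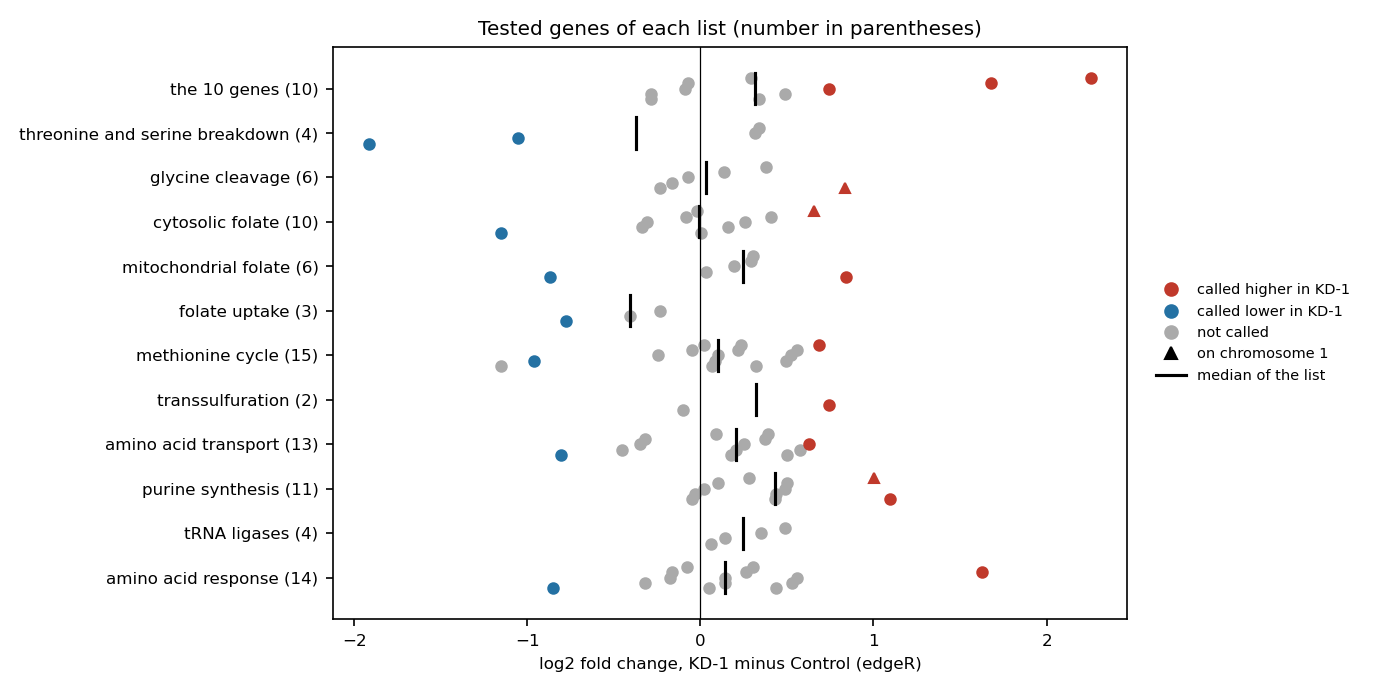
log2FC of KD-1 against Control (horizontal axis) of every tested gene in the set of 10 and in the 11 further lists, with the number of tested genes in parentheses, called genes in colour, genes of chromosome 1 as triangles and the median of each list as a bar. Most genes lie within 0.6 of 0, and *Tdh* and *Gldc* are the farthest to the right.

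In the threonine and serine breakdown list, 2 of 4 tested genes were called, both lower, where 18.1% of all genes tested were called lower. The most abundant gene of this list was higher in KD-1 and passed the adjusted p with a change under 1.5-fold. *Tha1*, a threonine aldolase that cleaves threonine without TDH, fell from 1.32 ± 0.455 to 0.348 ± 0.0954 CPM (SD, n = 3 each), with a log2FC of -1.91 (edgeR adjusted p = 0.0020). *Srr*, serine racemase, had a log2FC of -1.05. In the folate lists, each compartment had genes called in both directions. *Mthfd1l*, the mitochondrial enzyme that releases formate, fell from 93.9 ± 1.5 to 51.4 ± 0.497 CPM (SD, n = 3 each), with a log2FC of -0.87 (edgeR adjusted p = 2.0e-06). It thus moved opposite to *Slc25a32*, the mitochondrial folate carrier (0.84), while *Mthfd2l*, the paralog of *Mthfd2*, had 0.03 (95% interval -0.23 to 0.29). In the cytosol, *Aldh1l1*, which oxidizes formyl folate, fell (-1.15) and *Atic*, an enzyme of purine synthesis, rose (0.66). *Atic* also lies on chromosome 1. The trifunctional *Mthfd1* (0.41) was higher by less than 1.5-fold, and *Tyms* (0.00), thymidylate synthase, was not called. Of 3 tested folate uptake genes, the receptor gene *Folr1* fell (-0.77), and the carrier *Slc19a1* had -0.41.

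The methionine cycle list had 2 of 15 tested genes called, *Slc25a26*, the mitochondrial carrier of S-adenosylmethionine (0.69), and *Apip*, a methionine salvage enzyme (-0.96). For comparison with this list and those below, 37.7% of all genes tested were called, 19.7% higher and 18.1% lower. Without the shallowest Control library *Slc25a26* fell below the fold change threshold (0.56). *Mat2b*, the regulatory partner of *Mat2a*, had a log2FC of 0.10 (95% interval -0.02 to 0.22), and the hydrolase *Ahcy* (-0.05) and the methionine synthase *Mtr* (0.02) were not called. *Cbs*, which diverts homocysteine towards cysteine, rose (0.74), and *Cth* had -0.10. Among 13 tested amino acid transporters, *Slc1a5*, a carrier of neutral amino acids that include serine and threonine, rose from 26.3 ± 1.30 to 40.6 ± 1.13 CPM (SD, n = 3 each), with a log2FC of 0.63 (edgeR adjusted p = 6.5e-05). The glycine transporter gene *Slc6a9* fell (-0.81), and 9 of the other transporters passed the adjusted p with smaller changes (25.8% of all genes tested did so). Of 11 purine synthesis genes, *Adss2* (1.00, chromosome 1) and *Prps2*, which makes the ribose donor (from 36.0 to 77.0 CPM), were called higher and none lower. None of the 4 tRNA ligases was called.

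The amino acid response list holds *Atf4*, the factor known to induce *Phgdh*, *Psat1*, *Shmt2* and *Mthfd2* when amino acids are scarce, and 13 genes that respond with it. Of the 14 genes, *Slc7a11*, a cystine carrier, was called higher (1.63) and *Ddit3* lower (-0.85). The list was thus called at 14.3%, below the 37.7% of all genes tested. A further identifier that carries the name *Ddit3*, ENSMUSG00000116429, had 0 counts in all 6 libraries. *Atf4* itself had 136, 180 and 147 CPM in Control and 139, 140 and 134 CPM in KD-1, a log2FC of -0.16 (95% interval -0.39 to 0.06). With a library left out the log2FC lay between -0.25 and -0.04, and *Atf4* was not called in any of these fits. The middle Control library was the highest of its group for 9 of the 14 genes (64.3%), *Atf4* among them, and for 40.0% of all genes tested. *Asns*, asparagine synthetase, had a log2FC of 0.53, just under the threshold.

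Marker lists of cell types and states that gastruloids can hold were set beside these genes. For comparison, 19.7% of all genes tested were called higher and 18.1% lower. Of 13 naive pluripotency genes, 11 were called higher, and their summed level was 1230, 1210 and 1240 CPM in the Control and 2790, 2690 and 2730 CPM in the KD-1 libraries, with *Dppa5a* the most abundant. Of 8 general and primed pluripotency genes, 7 were called higher, and the sums went from a mean of 712 to 1720 CPM. *Lin28a* (mean of 271 CPM) and *Pou5f1* (269 CPM) were the most abundant in Control and *Pou5f1* (661 CPM) in KD-1. Over both pluripotency lists the log2FC ran from 0.15 (*Tbx3*, not called) to 3.30 (*Otx2*). Of 11 tested presomitic and paraxial mesoderm genes, 10 were called lower, and the sums fell from 552, 637 and 577 CPM to 77.6, 78.8 and 78.7. *Meox1* was the most abundant in Control (371 CPM, against 0.423 in KD-1) and *Pax3* in KD-1 (42.2 CPM, against 89.7 in Control). *Msgn1* was at 0 in every KD-1 library and had at most 3 counts in any Control library. Of 7 tested neural genes 4 were called higher (mean sums of 157 and 241 CPM). *Nes*, the most abundant of them in both groups, was lower in KD-1 (115 CPM in Control and 84.7 in KD-1, log2FC -0.44) by less than 1.5-fold. Of 8 caudal epiblast and NMP genes 1 was called higher and 3 lower (63.6 and 58.4 CPM). *Cdx2* was the most abundant in Control (26.9 CPM, against 11.3 in KD-1) and *Nkx1-2* in KD-1 (33.3 CPM, against 17.6 in Control).

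The endoderm list had 2 genes called higher and 2 lower of 5 tested (160 and 308 CPM). Its sum rose through *Trh*, the most abundant in both groups (130 CPM in Control and 265 in KD-1), and *Epcam*, whereas *Cer1* and *Foxa1* fell, and its defining genes *Sox17*, *Foxa2* and *Gata6* were under 1 CPM in all libraries. The cardiac and endothelial list had 1 higher and 3 lower of 4 tested (22.4 and 31.1 CPM). *Pecam1* alone rose (14.5 CPM in Control and 29.4 in KD-1), whereas *Tnnt2*, *Kdr* and *Gata4* fell (*Kdr* was not called without the middle or the deepest KD-1 library, with a log2FC of -0.71 and -0.85), with *Nkx2-5*, *Hand2*, *Cdh5* and *Tal1* under 1 CPM throughout. Of 4 tested fibroblast genes 3 were called lower (8.11 and 0.936 CPM), and the most abundant was *Col3a1* in Control (5.44 CPM, against 0.120 in KD-1) and *Thy1* in KD-1 (0.451 CPM, against 0.132 in Control). *Thy1* differed in the opposite direction to the other tested genes of its list and, of the fits with a library left out, was called in that without the deepest Control library (log2FC 1.59, and 2.89 without that library). Of 11 replication and proliferation genes 2 were called higher, *Top2a* and *Mcm3* (chromosome 1), and none lower. The median log2FC of this list was -0.12, whereas the sums were 4510, 4350 and 4600 CPM in Control and 4860, 4840 and 4900 CPM in KD-1. *Top2a* alone rose from 831 to 1330 CPM, more than the sum did, and *Mcm2*, *Mcm5*, *Mcm7*, *Pcna* and *Rrm1* passed the adjusted p with lower levels in KD-1 and changes under 1.5-fold. Over all marker lists 52 of 74 tested genes were called (70.3%), and 46 of 67 without chromosome 1 (68.7%). Of all genes tested, 37.7% were called. The pluripotency and neural sums were thus higher in KD-1, as *Tdh*, *Gldc* and *Shmt1* were, the presomitic and fibroblast sums were lower, and the higher endoderm and cardiac and endothelial sums rested on 1 or 2 genes each. The part of these lists in the changes of the 3 genes was not tested.

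**Figure D5:**
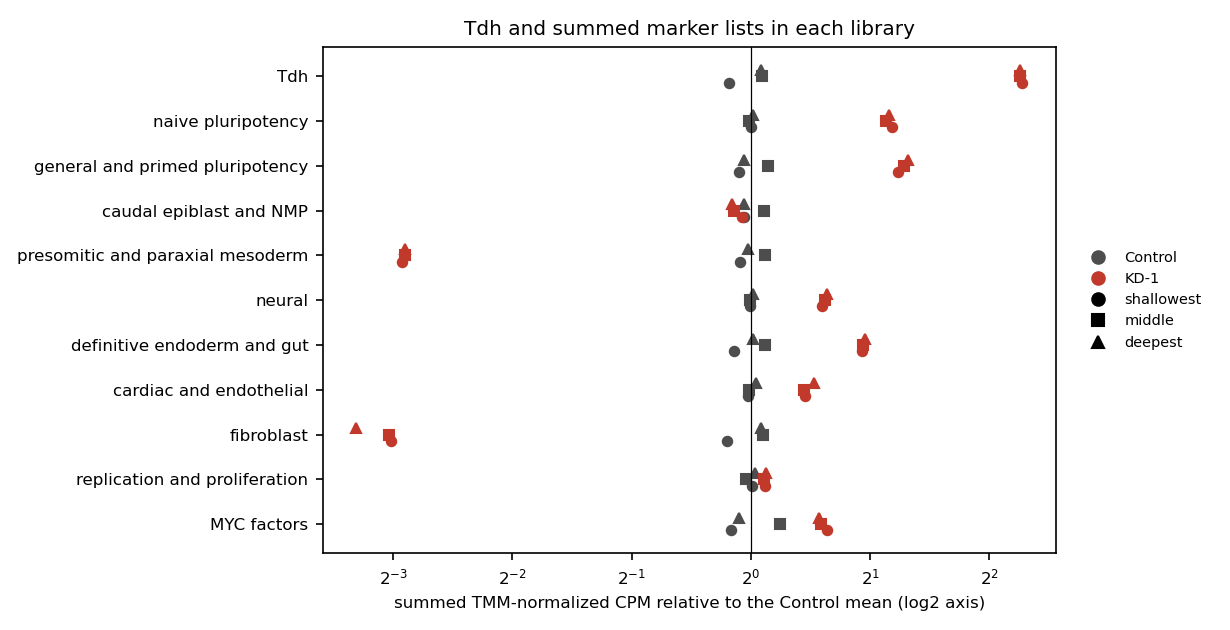
*Tdh* and the summed TMM-normalized CPM of each marker list in every library, divided by the Control mean (log2 axis), with Control in grey, KD-1 in red and a symbol for each library's depth rank. The pluripotency, neural, endoderm, cardiac and endothelial and MYC sums lie to the right in KD-1, as *Tdh* does, the presomitic and fibroblast lists lie to the left, and the replication list stays near 1.

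The MYC genes, whose products are known activators of many of these enzymes, went in different directions. *Myc* fell from 32.4 ± 8.07 to 6.37 ± 0.389 CPM (SD, n = 3 each), with a log2FC of -2.35 (edgeR adjusted p = 5.9e-06). *Mycn* rose from 21.6 ± 2.64 to 71.4 ± 1.1 CPM (SD, n = 3 each), with a log2FC of 1.73 (edgeR adjusted p = 9.4e-07), and *Mycl* rose by less (0.77). Their summed level was 64.5, 85.7 and 67.5 CPM in Control and 113, 109 and 108 CPM in KD-1.

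The genes with the most similar profiles were sought for the 3 called genes by the Euclidean distance between centred log2 CPM profiles over the 6 libraries, among the 13140 genes with at least 10 counts in each library. The closest to *Tdh* were *Crmp1* (distance 0.179) and *Elavl4* (0.205), both neuronal genes, with log2FCs of 2.17 and 2.20. The closest to *Gldc* were *Nanog* (0.0893) and *Enah* (0.123), the latter on chromosome 1. The closest to *Shmt1* were *Cbx6* (0.0641) and *Dgke* (0.0716). With 2 groups of 3 libraries, such a distance reflects mainly the size of the difference between the groups.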

How the data were processed

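The authors sequenced TruSeq libraries from both ends on a NextSeq instrument and ran Salmon (version 1.1) with a Gencode gene model. They deposited estimated read counts (expected counts) per Ensembl gene, in whole numbers and without normalization. The genome build, the use of strand and the summing of transcripts are not given in the sources used here. Salmon divides reads between similar transcripts, so overlapping genes and copies are uncertain.

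The columns could be assigned to groups, not to replicate numbers. Names, positions and exon lengths came from GENCODE vM39 (GRCm39), which held 35222 of the 35565 identifiers, and promoters from RefSeq (GRCm38.p6). The test was edgeR's (version 4.0.16, in R 4.3.3), after filterByExpr, with TMM normalization, a robust quasi-likelihood fit (a single term for condition) and p-values adjusted by Benjamini-Hochberg over 15110 genes. DESeq2 (version 1.42.0), limma-voom (limma version 3.58.1), other normalizations, filters and thresholds and each library left out were alternatives. Intervals are 95%. With 3 counts as the limit for a gene at 0, the shallowest library could miss 0.143 CPM (counting error only).

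The 10 genes and the lists were chosen with earlier results of these data known. Genes named are the 10, called genes of each list and partners of the 10 in the pathway, which were picked for their role, marker lists with the most abundant gene of each group and, chosen after their values were seen, other members that show what carried a sum, and the nearest profiles of the 3 genes with the largest changes, of which 2 each are given. No pair of libraries within a group was as alike as sampling alone would make it (chi-square per degree of freedom at least 4.85 over genes with at least 20 counts in the pair). The middle Control library stood apart in its group, with 36.3 against the shallowest and 36.5 against the deepest. Those other Control libraries had 15.3 between them, and pairs of KD-1 libraries had at most 11.1. The fit was tested on simulated counts of 15110 genes, of which 200 were changed by an absolute log2 fold change of 1.5. It called 171 of the 200 in the right direction, and 7 of 14714 unchanged genes. Far fewer genes changed there than the 5704 called in the data, so the simulation does not check the fit under that many changes.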

Additional observations from a re-analysis of the deposited data

How the results depend on the processing

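*Tdh* and *Gldc* were called under every alternative, and *Shmt1* under all but an absolute log2 fold change over 1. Over the 10 genes and their alternatives, 167 of 171 values kept their direction and call, and none changed sign. With no fold change threshold 6 of the 10 genes were called, since *Psat1*, *Mthfd2* and *Mat2a* passed. Among all genes, 5704 were called, against 3274 at an absolute log2 fold change over 1, 9597 with no fold change threshold and 3763 with glmTreat against a 1.5-fold change. For the 88 pathway genes the count was 17, against 6, 51 and 10 under the same settings and 21 with DESeq2 or with library size as the only scaling. Leaving out each library in turn gave 5176 to 6113 genes, 3 to 3 of the 10 genes and 17 to 21 pathway genes, and a difference in the *Shmt1* to *Shmt2* ratio of 0.88 to 1.12. For 73 other named genes, 1170 values kept direction and call, 39 lost the call, 15 gained it and 11 changed sign, the last only for genes that were not called. These were *Tyms* with upper-quartile normalization (-0.01), *Ahcy* with library size only (0.01) and 5 genes with a library left out, *Tyms* (-0.03 to 0.06), *Mthfd2l* (-0.04 to 0.16), *Ahcy* (-0.10 to 0.03), *Lipt2* (-0.41 to 0.06) and *Mtr* (-0.08 to 0.09). No paired analysis was possible because the columns do not carry the replicate numbers of the labels. Adding both *Gcat* identifiers and leaving out chromosome 1 were chosen after seeing the data. Each group is 1 line with 3 libraries, and the shallowest Control library limits low genes such as *Tha1*. Counts of overlapping antisense genes cannot be separated without strand.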
